A study of Drosophila melanogaster with 2 samples.

Results

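The 10 genes described here form the core of programmed cell death in Drosophila melanogaster: the killers rpr, hid, grim and skl, the caspase adaptor Dark, the initiator caspase Dronc, the effector caspases Drice and Dcp-1, the caspase inhibitor th (also called Diap1) and the Bcl-2 relative Buffy. They were taken by name from the deposited transcript table, in which hid is listed as W, Dronc as Nc, Drice as Ice and Dark as Ark, and they are 10 of 13816 loci. All 10 were found, and 7 had enough reads to be tested; rpr, grim and skl did not. The libraries were made from poly(A) RNA of posterior midguts, the absorptive hind part of the middle intestine, pooled from wild-type Oregon R females aged 45 days or 5 days, with 3 biological replicates at each age. The authors' table calls its columns treatment 1 to 3 and control 1 to 3 without tying either set to an age, and the labels do not do so either, so values are given as treatment against control. Were control the younger age, a gene higher in treatment would be higher at 45 days, but no source used here states this. No transgene or other treatment is named for either set.

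Cell death in the fly is held back by th, an inhibitor of apoptosis protein (IAP) that binds caspases and marks them for destruction. The killer proteins bind th and free the caspases; Dronc, assembled on Dark, then cuts and activates Drice and Dcp-1, which dismantle the cell. In the midgut, aged or damaged enterocytes are lost this way and replaced by the division of intestinal stem cells.

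Libraries held 9581959 to 18001953 reads over loci, counting the most-read transcript of each. Values are given as CPM, reads per 1000000 reads of the library, after TMM scaling, which adjusts library sizes so that most genes do not shift between libraries, and one read corresponds to a level far below that of every member tested. Adjusted p-values are from edgeR's quasi-likelihood test of treatment over control with Benjamini-Hochberg adjustment over the 8137 loci tested, and a gene is called where this value is under 0.05. The tissue markers were present: the enterocyte markers Myo31DF and nub averaged 305 and 171 CPM in treatment and 344 and 152 CPM in control, and the posterior regulator cad averaged 85.5 CPM in treatment and 119 CPM in control. Marker levels of several cell types moved with the sets. Summed stem cell and enteroblast markers were at 153 to 157 CPM in treatment and 99.0 to 105 CPM in control, with 4 of 5 genes called higher. Visceral muscle markers were at 510.8 to 511 CPM in treatment and 1095 to 1164 CPM in control, with 4 of 4 tested called lower. Enteroendocrine markers were at 107 to 116 CPM in treatment and 187 to 195 CPM in control, with 3 of 5 called lower. The markers pros, at 7.52 CPM in treatment and 6.81 CPM in control, and NPF, at 9.28 and 9.27 CPM, were not called. Copper cell markers were at 47.2 to 53.4 CPM in treatment and 17.7 to 22.1 CPM in control, with 2 of 3 called higher. Of these, Vha100-4 averaged 29.0 CPM in treatment and 1.06 CPM in control, and lab 2.74 CPM in treatment and 0.415 CPM in control. The third, dve, averaged 18.9 CPM in treatment and 18.5 CPM in control and was not called. Summed enterocyte markers were at 5931 to 6307 CPM in treatment and 9769 to 10206 CPM in control (2 higher and 3 lower of 6); mag alone averaged 1103 CPM in treatment and 4705 CPM in control, and the folds of the other 5 were 0.886 to 1.13. Summed values were also lower for the posterior markers cad and Gal, at 114 to 120.4 CPM in treatment and 189.99 to 197 CPM in control (both lower), and for tracheal markers, at 6.96 to 7.46 CPM in treatment and 9.95 to 11.3 CPM in control (3 of 3 tested lower). No marker in these lists was at 0 in all libraries. Their part in the results below was not tested, and in such bulk samples a change in the number of cells of one type cannot be told apart from a change in RNA per cell.

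Of the 7 members tested, 3 were higher in treatment (hid, Dronc and Drice) and 1 was lower (Dcp-1). Dark, th and Buffy did not pass the test. Across all loci tested 49.2% were called, 25.0% higher and 24.1% lower, so 4 calls among 7 genes is a share near that background. The median log2 fold change of the 7 was -0.02, beside 0.01 for all loci tested. The members are therefore described one by one, by role.

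**Figure D1:**
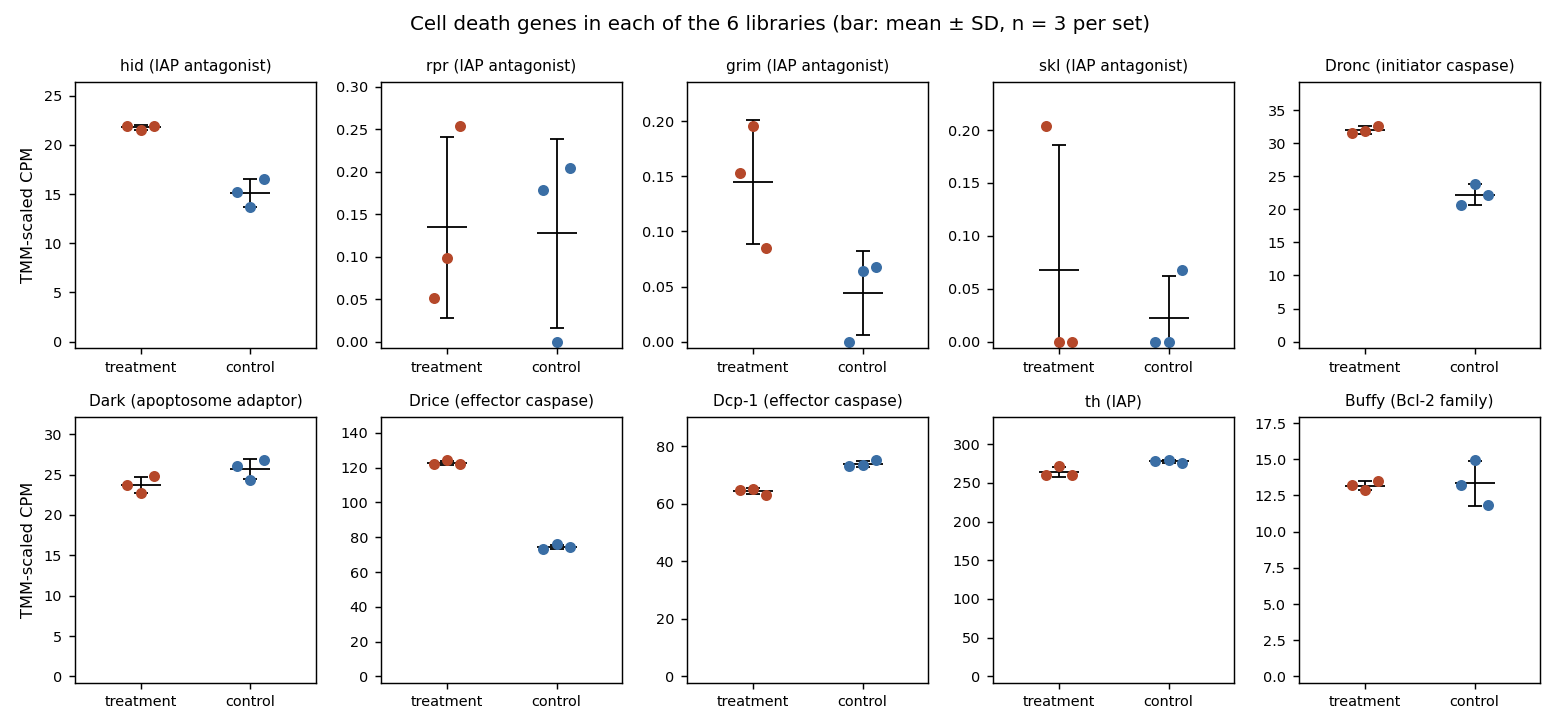
TMM-scaled CPM of each of the 10 members (each panel has its own axis) in the 3 treatment libraries and the 3 control libraries; points are libraries and bars are mean ± SD. Drice, hid and Dronc lie higher in all 3 treatment libraries than in any control library and Dcp-1 lies lower, while rpr, grim and skl stay at or below 0.254 CPM everywhere.

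Among the killer genes only hid was expressed at a level that could be tested. hid encodes a mitochondria-associated killer whose activity is also restrained by growth factor signalling. It was at 21.9, 21.5 and 21.97 CPM in treatment replicates 1 to 3, against 15.2, 13.6 and 16.5 CPM in control replicates 1 to 3. Every treatment library stood above every control library (SD 0.273 CPM in treatment and 1.42 CPM in control, n = 3 each). The difference was 1.45-fold (95% interval 1.29 to 1.62; log2 fold change 0.53, SE 0.08; adjusted p = 2.06e-06), and 8.70% of loci tested had a higher log2 fold change.

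The other killer genes were close to absent. For rpr, the founding member of the group, the read counts were 1, 1 and 3 in treatment against 2, 0 and 3 in control. For grim, which shares with rpr the short N-terminal stretch that binds th, they were 3, 2 and 1 in treatment against 0, 1 and 1 in control. For skl, a further th-binding killer, they were 4, 0 and 0 in treatment against 0, 0 and 1 in control. All 3 together came to 15 reads in treatment and 8 in control. Only skl in treatment replicate 1 passed 3 reads, a number that corresponds to 0.153 to 0.294 CPM depending on the library (counting error only), so no fold is given for any of these genes. In a fit with no filter on low counts none of them was called, with unadjusted p = 0.998 for rpr, 0.238 for grim and 0.266 for skl (adjusted p = 0.400 for grim and 0.434 for skl). In the Ensembl BDGP6 annotation 44.1% of grim's exon bases are shared with an antisense RNA, CR45974, and 31.8% with CR45975 on its own strand, so even these few reads may belong to another transcript.

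All 4 killer genes lie on the minus strand of chromosome arm 3L within 272 kb, from hid at 18160842 to 18178737 to skl at 18431656 to 18433037. Coordinates are those of the authors' table, which names no build. Of the cluster, hid is the only gene with introns (4 exons and a transcript of 4017 bases), while rpr, grim and skl are single-exon genes of 851, 1696 and 1382 bases. The proteins differ in size by the coding sequences of that annotation, with 410 codons for hid, 138 for grim, 108 for skl and 65 for rpr. The loci next to hid were also near 0: CG13699, 5226 bases to the left, is listed at 0 in all libraries, and CG7320, 15998 bases to the right, averaged 0.0453 CPM in treatment and is listed at 0 in control. Neither had enough reads to be tested, so hid was the only tested locus among itself and its direct neighbours.

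Dronc rose while its adaptor did not pass the test. Dronc, the fly counterpart of caspase-9, was at 31.6, 31.8 and 32.7 CPM in treatment, against 20.7, 23.8 and 22.2 CPM in control, with no overlap between the sets. The difference was 1.43-fold (95% interval 1.29 to 1.59; adjusted p = 3.97e-07). Dark, the fly counterpart of Apaf-1, was at 23.7, 22.7 and 24.8 CPM in treatment, against 26.1, 24.3 and 26.8 CPM in control. The sets of Dark libraries overlapped, and the fold was 0.925 with a 95% interval of 0.834 to 1.03 (adjusted p = 0.207). The difference between the fold changes of Dronc and Dark was not tested. Dronc lies on 3L at 9961543 to 9964102, with CG6685 141 bases to one side and CG6674 148 bases to the other. CG6685 averaged 1.42 CPM in treatment and 1.80 CPM in control, and CG6674 averaged 7.94 CPM in treatment and 8.40 CPM in control. Neither was called (adjusted p = 0.334 and 0.760).

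Dark has a second, shorter transcript in the deposited table, with 6 exons and 1840 bases where the main one has 11 exons and 4807. Its reads numbered 25, 10 and 12 in treatment against 24, 29 and 43 in control, 6.97% of the reads of the main transcript over all libraries. Scaled, it was at 1.28, 0.980 and 1.02 CPM in treatment and 2.14, 1.86 and 2.93 CPM in control, so the sets did not overlap and the mean in treatment was 0.473 times that in control. This transcript was not tested, and with so few reads the ratio is a description only. In the Ensembl BDGP6 annotation an antisense RNA, CR44390, covers 56.9% of Dark's exon bases, and since no strand setting is given its reads cannot be told apart from those of Dark.

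The effector caspases, close relatives that act at the same step, moved in opposite directions, although the fall of Dcp-1 depended on how libraries were scaled. Drice was at 122, 124 and 122 CPM in treatment, against 73.5, 75.9 and 74.2 CPM in control. The sets did not overlap (SD 1.22 CPM in treatment and 1.26 CPM in control, n = 3 each). These SDs were not set against counting error. The difference was 1.65-fold (95% interval 1.54 to 1.76; log2 fold change 0.72, SE 0.05; adjusted p = 2.27e-14), the largest among the members tested, and 5.12% of loci tested had a higher log2 fold change. Dcp-1 was at 64.9, 65.3 and 63.2 CPM in treatment, against 73.2, 73.4 and 75.1 CPM in control. Its sets did not overlap either, but the difference was small, at 0.872-fold (95% interval 0.809 to 0.939; adjusted p = 0.00227). Scaled by total reads alone Dcp-1 was no longer called (log2 fold change 0.01, adjusted p = 0.912). That scaling moved the median of all loci tested to 0.22, and relative to this median Dcp-1 stood at -0.21. Taking the median away restores what TMM assumes, that most genes do not shift, so the last value is no separate check.

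The surroundings of the effector genes differ. Drice, a single-exon gene on 3R at 25625375 to 25627307, lies 319 bases from Rnb and 140 bases from Etfb, a subunit gene of the electron transfer flavoprotein. Rnb averaged 6.28 CPM in treatment and 7.72 CPM in control (adjusted p = 0.114). Etfb averaged 201 CPM in treatment and 221 CPM in control (log2 fold change -0.14; adjusted p = 0.0176), the opposite direction to Drice, although it reversed to 0.06 with total-read scaling (adjusted p = 0.253). Its call was also lost in summed transcripts (0.0558) and without treatment replicate 1 (0.183) or 3 (0.0944). Dcp-1, on 2R at 19438838 to 19441079, lies inside the span of pita, a zinc finger protein gene on the other strand. pita rose, at 51.0, 50.2 and 52.6 CPM in treatment against 37.6, 39.2 and 37.5 CPM in control (log2 fold change 0.43; adjusted p = 9.51e-07). By the Ensembl BDGP6 annotation the exons of both genes share 239 bases, 13.7% of the exon bases of Dcp-1. Without a strand setting, reads there cannot be assigned, and their part in the value of Dcp-1 was not tested.

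Neither inhibitor passed the test. th had the highest level of the members, at 259.9, 271 and 260.2 CPM in treatment, against 279, 279 and 275 CPM in control. The treatment libraries all lay below the control libraries, but the difference was 0.949-fold with a 95% interval of 0.894 to 1.01 and did not pass (adjusted p = 0.146). The authors' deposited table gives th a log2 fold change of -0.08 with an adjusted p of 0.0156, in a direction that its description does not state. With total-read scaling the sign turned and th was called higher (log2 fold change 0.13, adjusted p = 0.00797), 0.09 below the median of all loci under that scaling. Sets that do not overlap were common, at 55.2% of loci tested and 5 of the 7 members tested. The 3 transcripts of th listed in the table have nearly equal read counts, the least-read having 97.8% of the reads of the most-read. Their ratios of treatment to control means were 0.950, 0.949 and 0.954. An antisense RNA, CR45889, shares 347 exon bases with th in the Ensembl BDGP6 annotation. Buffy, one of only a pair of Bcl-2 family genes in the fly, was at 13.2, 12.8 and 13.5 CPM in treatment, against 13.2, 14.9 and 11.9 CPM in control. The control values enclose the treatment values, and the fold of 0.988 has a 95% interval of 0.861 to 1.13 (adjusted p = 0.898).

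The authors' deposited table of 4101 genes, whose highest adjusted p is 0.0999, holds 5 of the 10 members. For scale, 13816 loci entered here and 8137 of them were tested. With no higher adjusted p in it, the authors' table seems to list only genes that passed a threshold. That table describes the same series, so its values are not independent of those above. Its log2 fold changes are 0.72 for Drice (SE 0.04), 0.50 for Dronc (SE 0.08), 0.48 for hid (SE 0.10), -0.22 for Dcp-1 (SE 0.05) and -0.08 for th (SE 0.03). The deposit's description gives no direction for these fold changes, and for the log2 fold change of the transcript table it gives control over treatment. Read as control over treatment, the signs here would be opposite to the read counts for all 5 genes, so they are taken as treatment over control. The killers rpr, grim and skl, and also Dark and Buffy, are not among its genes.

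To compare members with each other, levels were divided by transcript length, giving CPM per kilobase. In treatment the order was th at 131 ± 3.26, Drice at 63.5 ± 0.633, Dcp-1 at 36.7 ± 0.631, Dronc at 15.6 ± 0.284, Buffy at 10.47 ± 0.258, hid at 5.42 ± 0.0680 and Dark at 4.94 ± 0.211 CPM per kilobase (SD, n = 3). No neighbours in that order overlapped across libraries until rpr, grim and skl, which overlapped one another at 0.158, 0.0853 and 0.0493 CPM per kilobase. In control the order changed at 2 places. Dcp-1 stood above Drice there, at 42.1 ± 0.599 and 38.6 ± 0.651 CPM per kilobase, and Dark above hid, at 5.35 ± 0.259 and 3.76 ± 0.354. Dronc and Buffy, at 10.8 ± 0.745 and 10.6 ± 1.22 CPM per kilobase in control, overlapped. th was therefore 2.06 times the next member in treatment and 3.28 times the next member in control.

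**Figure D2:**
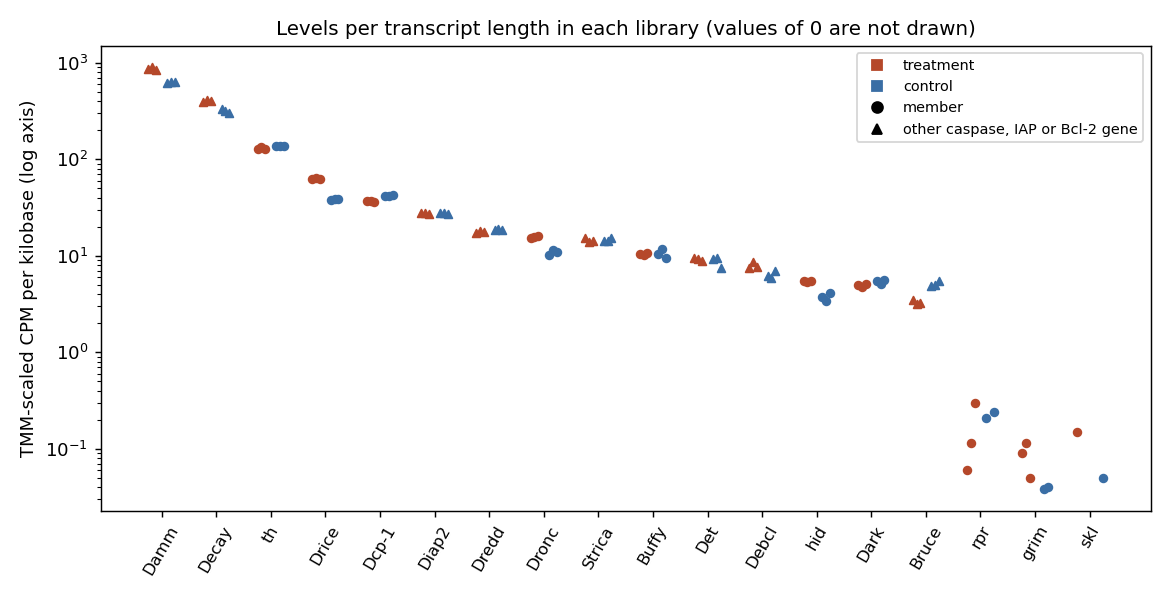
TMM-scaled CPM per kilobase of transcript (log axis) for the members (circles) and for other caspase, IAP and Bcl-2 genes (triangles), in order of the treatment mean; points are libraries, treatment to the left of control for each gene. Damm and Decay lie above th, and rpr, grim and skl lie more than a factor of 10 below all others.

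Ratios of reads between members within a library do not depend on how libraries are scaled. The ratio of Drice to Dcp-1 was 1.89, 1.902 and 1.93 in the treatment libraries, against 1.004, 1.03 and 0.987 in the control libraries. The ratio of Drice to th was 0.471, 0.458 and 0.469 in treatment, against 0.264, 0.272 and 0.269 in control, a 1.74-fold difference between the means on the log scale. The ratio of Dronc to th was 0.121, 0.117 and 0.126 in treatment, against 0.0743, 0.0852 and 0.0806 in control. The same held for hid to th, at 0.0843, 0.0791 and 0.0844 in treatment, against 0.0545, 0.0489 and 0.0599 in control. For the apoptosome pair, the ratio of Dronc to Dark was 1.33, 1.40 and 1.32 in treatment, against 0.795, 0.976 and 0.830 in control. In all 5 ratios the treatment libraries lay above the control libraries without overlap. The pairs were chosen with results known, and each sets a member called higher over a member not called higher. Their shared direction therefore follows from the fold changes above. The pairs also share members, so they are not separate observations, and no test was made of them.

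**Figure D3:**
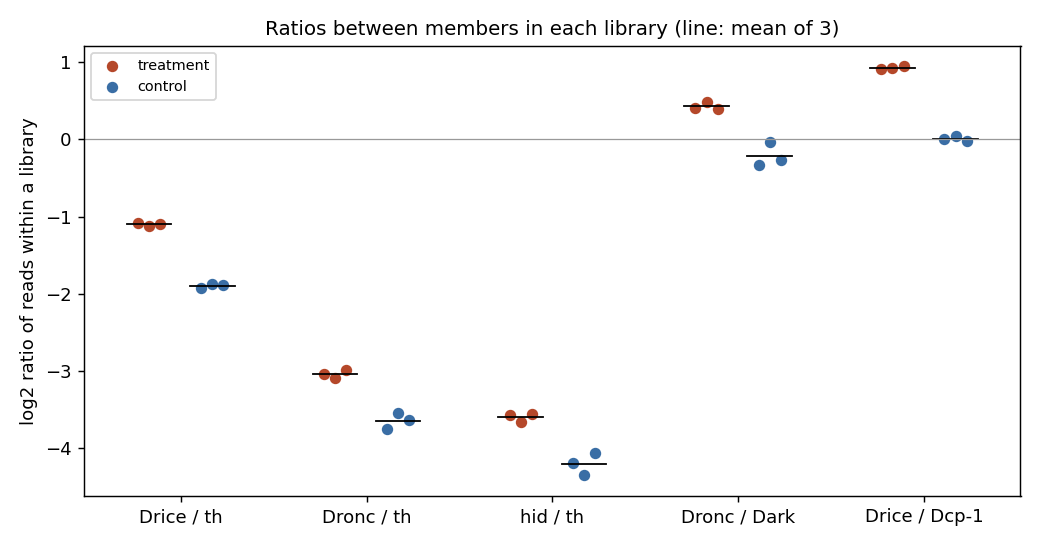
Log2 ratio of raw reads between a pair of members in each library, with the treatment libraries to the left of the control libraries and a line at the mean of 3. The log2 ratio of Drice to Dcp-1 averages 0.93 in treatment and 0.01 in control, and the treatment points lie above the control points in every pair. The pairs were chosen with results known, each with a member called higher over a member not called higher.

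Beyond the members, 48 genes in 7 lists of cell death functions were examined. Of these, 46 were matched and 41 tested, and 11 were higher and 12 lower in treatment, 56.1% called where all loci had 49.2%, with a median log2 fold change of -0.03. DESeq2 called 15 of these 23 genes with the same sign. Over all loci DESeq2 also called fewer, 1535 higher and 1658 lower, against 2038 and 1962 in edgeR. With total-read scaling the counts for these lists became 21 higher and 4 lower, so the division between directions depends on the scaling. Over all loci tested 25.0% were higher and 24.1% lower in the main fit. Single lists hold 3 to 8 tested genes with 33.3% to 83.3% called, so counts per list are a description only.

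Of 4 other caspases, 2 rose and 0 fell (median log2 fold change 0.17). Damm was at 841, 874 and 823 CPM in treatment, against 592, 612 and 605 CPM in control (1.40-fold; adjusted p = 4.65e-11). Decay was at 686, 716 and 691 CPM in treatment, against 576, 546 and 523 CPM in control (1.27-fold; adjusted p = 1.05e-07). Per length these short-prodomain caspases stood above every member, Damm at 878 ± 26.9 and Decay at 403 ± 9.16 CPM per kilobase in treatment, and at 626 ± 10.9 and 316 ± 15.2 CPM per kilobase in control. The others, named after their values were seen, were Dredd, the caspase of the IMD immune pathway (log2 fold change -0.07, adjusted p = 0.378), and the long-prodomain Strica (-0.01, adjusted p = 0.945).

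Of 3 further IAP family genes 1 fell and 0 rose. Bruce, a very large ubiquitin-conjugating enzyme that restrains killing by rpr and grim, was at 51.5, 47.1 and 48.2 CPM in treatment, against 72.7, 73.8 and 80.7 CPM in control (0.648-fold; adjusted p = 1.72e-10). Among 6 Bcl-2 and mitochondrial genes tested 3 rose and 2 fell (median -0.05). Drp1, which divides mitochondria, rose by 0.33 on the log2 scale, while Marf, which fuses their outer membranes, was at -0.26 and the respiratory cytochrome c gene Cyt-c-p at -0.43 (adjusted p = 1.19e-06, 1.67e-05 and 1.15e-09). The call of Marf was lost with total-read scaling (adjusted p = 0.286). Debcl, the other Bcl-2 gene of the fly, named after its values were seen, was at 0.30 (adjusted p = 0.0148), a call lost in DESeq2 (0.0964) and without treatment replicate 2 (0.0774) or control replicate 2 (0.0755).

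Of 8 regulators of th and Dronc 3 fell and 0 rose (median -0.09). They were Tango7, a translation factor subunit that promotes Dronc activity (-0.25), crinkled, a myosin VIIa (-0.45), and Ubr3, a ubiquitin ligase that binds th (-0.20; adjusted p = 2.34e-05, 0.00126 and 0.0269). With total-read scaling none of the 3 was called (adjusted p = 0.364, 0.0595 and 0.910). Ubr3 also lost its call in DESeq2 (0.0601), in summed transcripts (0.0605) and when treatment replicate 1 (0.0721) or 2 (0.111), or control replicate 1 (0.0711) or 3 (0.107), was left out.

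Of 8 genes of p53 and death receptor signalling tested 2 rose and 3 fell (median -0.04). The p53 gene, whose product can activate the killer genes after DNA damage, was at 16.3, 16.96 and 17.8 CPM in treatment, against 22.9, 24.2 and 22.4 CPM in control (log2 fold change -0.45; adjusted p = 8.67e-06). Its direction was opposite to that of hid, and a link between p53 and hid was not tested. Traf4, an adaptor between the death receptors and JNK, rose by 0.54 (adjusted p = 0.000265), and the kinase gene Ask1 fell by 0.25 (adjusted p = 0.00488; 0.605 with total-read scaling).

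Of 4 genes linked to caspase-activated nucleases tested, most of them Drep genes of the DNA fragmentation factor family, 1 rose and 1 fell (median -0.06). Drep2 was at -0.76 (adjusted p = 0.000488). Drep1 was at 0.56 (adjusted p = 0.0479), a call lost in DESeq2 (0.185), in summed transcripts (0.0870) and without treatment replicate 3 (0.238), control replicate 1 (0.0514) or control replicate 2 (0.243). Of 8 engulfment genes tested 3 rose and 2 fell (median -0.02). Rac2, a GTPase of the actin cytoskeleton, rose by 0.46 and mbc, which activates Rac together with Ced-12, was at -0.33 (adjusted p = 1.15e-08 and 0.000113). Ced-12, named after its values were seen, went the other way, at 0.20 (adjusted p = 0.0200). Rac1, also named after its values were seen, was at -0.03 and not called (adjusted p = 0.624). Under total-read scaling mbc did not pass (adjusted p = 0.101). Pall, an F-box protein gene needed for phagocytosis, was at 0.25 (adjusted p = 0.0101), and lost its call in DESeq2 (0.105) and without treatment replicate 1 (0.137) or control replicate 3 (0.0877).

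**Figure D4:**
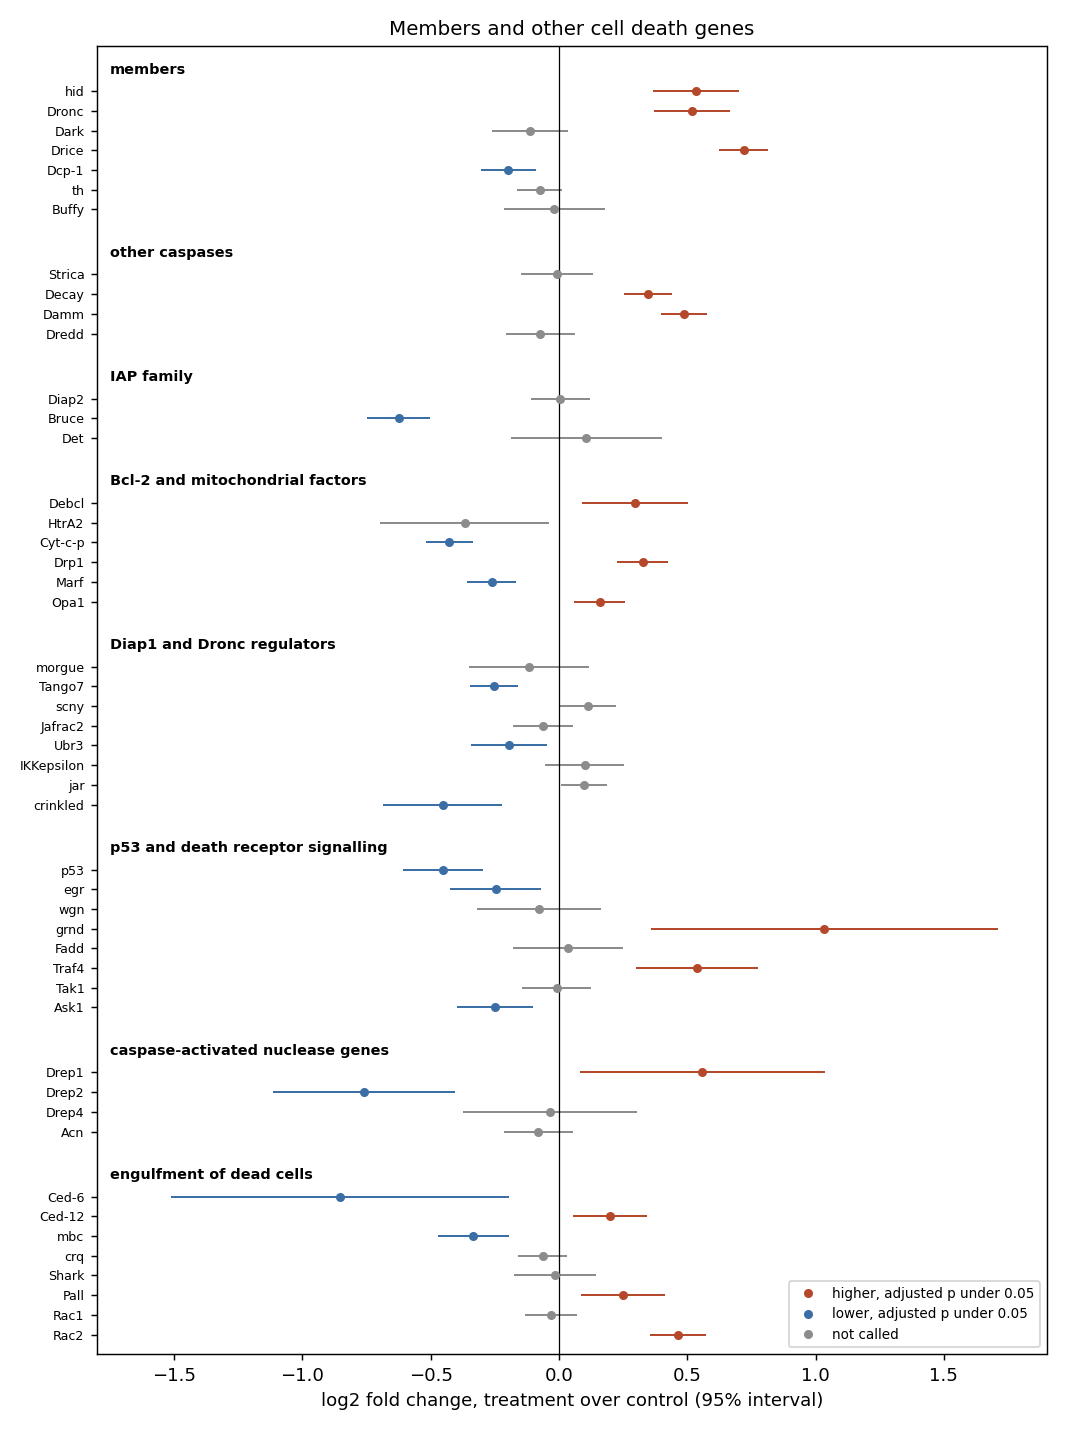
Log2 fold change of treatment over control with its 95% interval (edgeR) for the 7 members tested and the 41 other cell death genes tested, by list; colour shows the call at an adjusted p under 0.05. The lists other than the regulators of th and Dronc, the other caspases and the IAP family hold calls in both directions. Over all loci tested 25.0% were called higher and 24.1% lower.

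Of 18 loci that flank or overlap a member and are not members themselves, 13 were tested, 2 rose and 1 fell, where 49.2% of all loci tested were called; the difference in share was not tested. These were pita and Roc2, which rose, and Etfb, which fell. Roc2, a ubiquitin ligase subunit gene 120 bases from Buffy, was at 19.2, 21.4 and 21.7 CPM in treatment, against 15.3, 14.4 and 15.6 CPM in control (log2 fold change 0.45; adjusted p = 3.12e-05). CG13196 overlaps the span of Buffy on the other strand, with no shared exon base in the Ensembl BDGP6 annotation, and averaged 0.292 CPM in treatment and 0.572 CPM in control.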

How the data were processed

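Per the labels' protocols, poly(A) RNA of pooled posterior midguts was made into 3 libraries per age. The labels call the replicates biological, and p-values rest on the spread among these pools. The authors deposited raw read counts per transcript. The sources used here do not give the aligner, genome build, strand or counting rules. The submitters' processing notes name DESeq. The authors' second deposited table gives log2 fold changes, their standard errors and adjusted p-values per gene.

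Of 24047 transcripts, 145 predicted ones were left out. Each of 13822 loci was represented by its most-read transcript, because transcripts of a locus are likely to share reads, and 6 loci with a duplicate symbol were removed. RefSeq Release 6 gave the symbols of 12825 loci. Counts were fitted in R 4.3.3 with edgeR 4.0.16 (TMM, filterByExpr with a minimum count of 10). Alternatives used DESeq2 1.42.0, total-read scaling, no filter, summed transcripts, a replicate block and each library left out. The procedure was also run on simulated counts in which few loci changed, equally up and down. That run does not bear on the choice of scaling. Intervals are at 95%.

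Members and lists were chosen with earlier results of these data known. Named were all 10 members, up to 3 called genes per list with the smallest adjusted p, and loci flanking or overlapping members. AIF, drpr, Act57B and btl were not matched.

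No genome or sequence table of the files' build was used, so no sequence is shown.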

Additional observations from a re-analysis of the deposited data

How the results depend on the processing

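The genes hid, Dronc and Drice kept their direction and call in all 11 alternatives, with log2 fold changes of 0.46 to 0.74 for hid, 0.46 to 0.72 for Dronc and 0.70 to 0.92 for Drice. Dark and Buffy were called in none of their 11. Scaling by total reads had the widest effect. It gave 4128 loci higher and 1076 lower, 0 members lower, and 21 other cell death genes higher and 4 lower; log2 fold changes turned to 0.00720 for Dcp-1, 0.129 for th, 0.0930 for Dark, 0.189 for Buffy, 0.0101 for Ubr3 and 0.0628 for Etfb, and only th among these was then called. This scaling moves the median of all loci to 0.22, against which Dcp-1 stood at -0.21, a step that restores what TMM assumes. The TMM factors divided by set, at 1.06 to 1.09 in treatment and 0.922 to 0.940 in control. DESeq2 called 6 other cell death genes higher and 9 lower, against 11 and 12 in edgeR. Over all loci it also called fewer, 1535 higher and 1658 lower, against 2038 and 1962 in edgeR. The cause was not tested. Leaving out 1 library at a time left 3 members higher and 1 lower, with 8 to 10 other cell death genes higher and 9 to 12 lower. Over all loci these fits called 1828 to 1919 higher and 1735 to 1927 lower.

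With the column number as a replicate block, 3 members were higher and 1 lower, as without it, and 2107 loci were higher and 2011 lower. Same-numbered libraries correlated at 0.0094, 0.0939 and 0.0212 in their deviations from the set means. Other combinations ran from -0.0899 to 0.0834, the last for treatment replicate 1 with control replicate 3. Deviations from a mean of 3 constrain one another, so these values cannot decide whether the libraries are paired. Reads limit the result for rpr, grim and skl, where a difference was not detectable at this depth. Exon overlap with antisense genes limits Dcp-1, Dark, th and grim.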

Other observations

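The spread between replicate libraries is given here as a description only, since an SD from 3 libraries is imprecise. In treatment the coefficient of variation of CPM was 1.25% for hid, 1.82% for Dronc, 0.997% for Drice and 2.46% for Buffy, and in control it was 9.40% for hid, 6.87% for Dronc, 1.69% for Drice and 11.6% for Buffy. The order was the other way for th, with 2.49% in treatment and 0.743% in control, and for Dcp-1, with 1.72% in treatment and 1.42% in control. Dark had 4.27% in treatment and 4.85% in control. Counting error weighs more where reads are few. Control libraries held 170 to 242 reads for hid and 148 to 233 for Buffy, but 3122 to 4357 for th. Treatment libraries also held few, at 219 to 429 reads for hid and 131 to 259 for Buffy, although their coefficients were lower. The differences in spread between sets of 3 were not tested, nor set against counting error.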
